A study of Mus musculus with 6 samples.

Results

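Tfrc, Trf, Fth1 and Ireb2, 4 genes of cellular iron handling, were followed across pancreatic colonies that carried knockdown vectors against Glis3 or CD133. They were chosen by name, and all 4 had a row among the 11164 genes of the deposited expression table. The cells came from the pancreas of adult C57Bl/6 mice aged 2 to 4 months and were sorted for high surface CD133, the membrane glycoprotein encoded by Prom1, and low surface CD71, the protein encoded by Tfrc. After overnight exposure to lentivirus they grew under puromycin in methylcellulose with Matrigel, serum, conditioned medium, RSPO1, nicotinamide, exendin-4 and activin B, and primary colonies were collected at 3 weeks. The groups were shControl (1 shRNA with no mammalian target), shGlis3 (a pool of 5 shRNA clones against Glis3) and shCD133 (a pool of 5 clones against CD133), with libraries 1 and 3 of each. The control therefore differed from both knockdowns in the number of shRNA clones, and knockdown was partial. Whether libraries 1 and 3 of a group represent different mice or different cultures is not stated, and the p-values measure only the spread between these libraries, which may be technical.

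Each pool lowered its own target: Glis3 stood at 50.3% of control in shGlis3 colonies, and Prom1 at 46.6% in shCD133 colonies. The depth estimated from the steps of low values was 25800000 to 29200000 reads per library, and Pearson's r of log2 values was 0.993 to 0.995 within groups, across genes, which are not independent replicates. Of 16 ductal or progenitor epithelial markers 15 were measured, with summed levels of 8054 to 10640 RPKM (read counts scaled for transcript length and for library size). No erythroid marker (0 of 15) and no endothelial marker (0 of 8) had a value. Of 15 macrophage and leukocyte markers only Cd68 and Cd14 were measured, and of 13 acinar markers only Cela1 and Reg1, which summed to 197.1 and 305.2 RPKM in control, 108.7 and 49.27 in shGlis3, and 389 and 383.1 in shCD133 libraries 1 and 3. The only measured gene of 11 mesenchymal markers, Fn1 (fibronectin), also differed between the groups.

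Iron travels in plasma bound to transferrin, the product of Trf, and enters cells when transferrin binds the transferrin receptor CD71 and the complex is taken into endosomes. Iron that is not used at once is stored in ferritin, a shell built of heavy chains (Fth1, which carry the ferroxidase site) and light chains (Ftl1). When iron is scarce, the iron regulatory proteins IRP1 (Aco1) and IRP2 (Ireb2) bind RNA hairpins called iron responsive elements. Binding in the 3′ untranslated region of Tfrc RNA stabilises it, whereas binding in the 5′ untranslated region of ferritin RNA blocks its translation, so for ferritin this control acts on protein more than on RNA level. Dividing cells are known for high CD71.

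The hairpins that tie these genes together were located in the GENCODE M21 transcripts of GRCm38, the assembly of the build mm10 that the submitters name. The search was for an unpaired C, a stem strand of 5 bases, the loop CAGTGN and a second stem strand of 5 bases able to pair with the first, G-U pairs allowed, on the sense strand. They are shown because they separate the receptor RNA, which carries several elements after its coding region, from the ferritin and exporter RNAs, which carry a single element before it. Capitals mark the unpaired C and the loop, with 6 flanking bases on each side in the sequences below, all 5′ to 3′.
Tfrc element 1, chr16:32631219-32631247, plus strand: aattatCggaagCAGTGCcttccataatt
Tfrc element 2, chr16:32631598-32631626, plus strand: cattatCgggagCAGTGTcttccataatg
Tfrc element 3, chr16:32631663-32631691, plus strand: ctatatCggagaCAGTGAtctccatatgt
Tfrc element 4, chr16:32631710-32631738, plus strand: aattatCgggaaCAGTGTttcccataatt
Fth1, chr19:9982732-9982760, plus strand: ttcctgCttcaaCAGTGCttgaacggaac
Ftl1, chr7:45459779-45459807, minus strand: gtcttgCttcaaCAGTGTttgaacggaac
Slc40a1 (the iron exporter ferroportin), chr1:45925465-45925493, minus strand: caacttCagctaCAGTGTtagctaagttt

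The Fth1 and Ftl1 elements differed at 3 of 29 bases, while the 4 Tfrc elements differed from each other at 4 to 11 bases and from that of Fth1 at 18 to 20. Tfrc held its 4 matches in the 3′ untranslated region, starting at bases 3321, 3700, 3765 and 3812 of a transcript of 4890 bases. Of 21864 coding genes, 288 (1.32%) held the pattern in any transcript, 4 held it 2 times in 1 transcript, and Tfrc alone held it 4 times. No match was found for Trf or Ireb2, which says only that these letters are not in those transcripts.

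**Figure D1:**
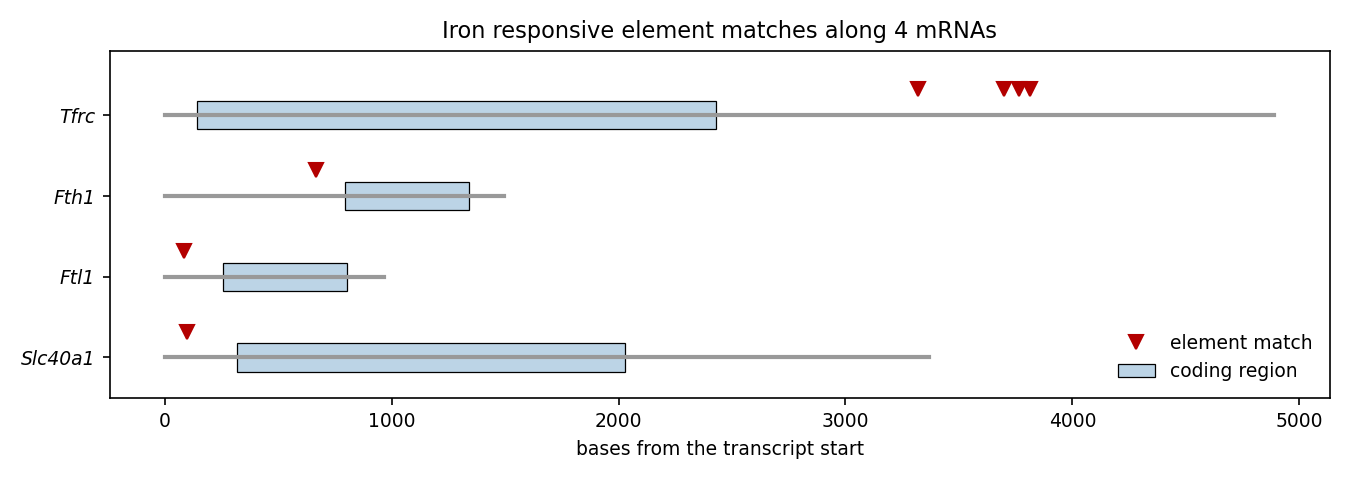
Map of 4 mRNAs, with bases from the transcript start on the horizontal axis, the coding region as a box and each match to the iron responsive element pattern as a triangle. Tfrc has 4 matches after its coding region, and Fth1, Ftl1 and Slc40a1 have 1 each before theirs.

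The 4 genes spanned a wide range of levels per length. Fth1 ranked between 10 and 16 among the 11164 genes in every library, Tfrc between 981 and 1401, Ireb2 between 2730 and 3216, and Trf between 6603 and 10485. On the RPKM scale the highest library exceeded the lowest by 5.31-fold for Trf, 1.34-fold for Tfrc, 1.25-fold for Fth1 and 1.13-fold for Ireb2. Using GENCODE lengths, which may not be those of the authors, about 90 to 490 reads lay behind a Trf value, and 2700 or more behind each value of the other 3 genes.

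**Figure D2:**
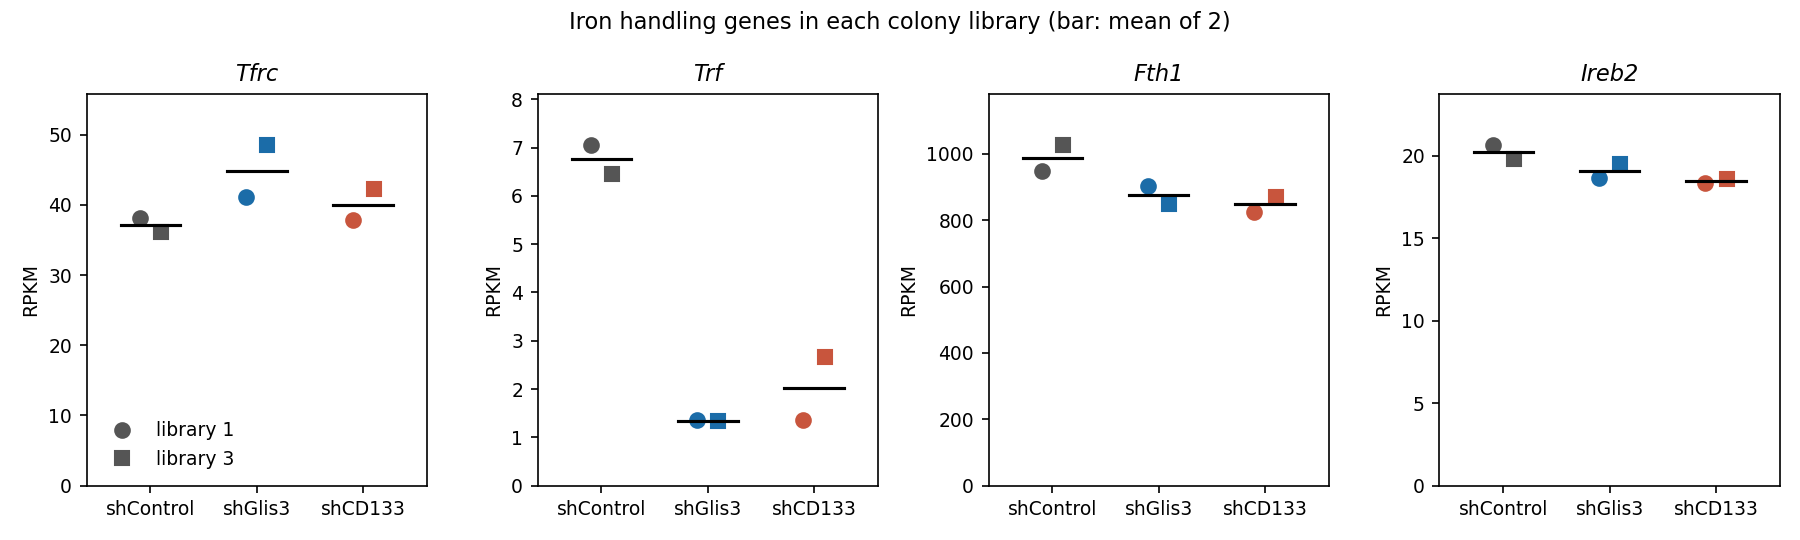
RPKM of Tfrc, Trf, Fth1 and Ireb2 in each library, with circles for library 1, squares for library 3 and a bar at the mean of the 2, on axes that start at 0. Trf is high in both control libraries and low in all 4 knockdown libraries, while the other 3 genes vary by 1.34-fold or less.

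Tfrc, the receptor gene (chromosome 16: 32608920 to 32632794, plus strand), was well expressed in colonies grown from cells sorted for low surface CD71. Its RPKM was 38.08 and 36.2 in control libraries 1 and 3, 41.2 and 48.6 in shGlis3 libraries 1 and 3, and 37.81 and 42.23 in shCD133 libraries 1 and 3. Both shGlis3 libraries lay above both controls, where 59.6% of all genes tested did not overlap either, and the shCD133 libraries overlapped the controls. The median gene had 9.18 to 9.61 RPKM, and neither freshly sorted cells nor CD71-high cells were among the samples.

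The differences in Tfrc did not pass the test. The mean was 37.1 ± 1.33 RPKM in control, 44.9 ± 5.23 in shGlis3 and 40.0 ± 3.13 in shCD133 colonies (SD, n = 2 each). The log2 fold change in RPKM + 1 was 0.26 for shGlis3 against control (95% confidence interval 0.04 to 0.48, adjusted p = 0.108), where 12.9% of 10829 genes passed and 8.39% rose. It was 0.10 for shCD133 against control (interval -0.12 to 0.32, adjusted p = 0.493), where 11.8% passed and 8.16% rose, and 0.16 between the knockdowns (interval -0.06 to 0.38, adjusted p = 0.358), where 4.06% passed, 1.61% higher and 2.46% lower in shGlis3. Without shGlis3 library 1, which leaves the single library at 48.6 RPKM, the shGlis3 difference was 0.38 and passed (adjusted p = 0.0365); it was above 0 under every alternative, between 0.15 and 0.38.

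Many proliferation genes rose, while Tfrc passed in neither knockdown with all libraries kept. Of 14 genes of cell division and DNA synthesis, 13 rose in shGlis3 (median log2 fold change 0.69, against 0.04 over all genes tested). In shCD133 colonies 7 rose (median 0.47). Over all genes tested 8.39% rose in shGlis3 and 8.16% in shCD133. With quantile normalization 10 and 3 of the 14 rose, and with the replicate block 8 and 2. Their summed level was 189 and 204.3 RPKM in the controls, 273.7 and 349.2 in shGlis3, and 273.4 and 246.1 in shCD133 libraries 1 and 3. The library with the highest Tfrc, shGlis3 library 3, also had the highest sum, but shCD133 library 1 had a sum near that of shGlis3 library 1 with Tfrc at the control level. Without either control library 0 of the 14 passed in limma in either knockdown, with 13 or 14 at an unadjusted p under 0.05 in shGlis3 and 7 or 9 in shCD133. Without shGlis3 library 3, 7 rose in shGlis3; in shCD133 0 rose without shCD133 library 1 (7 at an unadjusted p under 0.05), 2 without library 3, and 11 without either shGlis3 library. The part of cell division in the Tfrc values was not tested. The 5 genes nearest to Tfrc over the 6 libraries, by distance between log2 values centred on each gene's mean, were Polh (a translesion DNA polymerase), Zbtb5, Wasf1 (an actin regulator), Arl5b (a small GTPase) and Azin1 (antizyme inhibitor, which favours polyamine synthesis), at 0.09 to 0.11, where a gene without any variation would lie at 0.34. None of the 5 was among the 5 with the highest Pearson's r.

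Trf, the gene for transferrin, fell in both knockdowns. Its RPKM was 7.06 and 6.46 in control libraries 1 and 3, 1.36 and 1.33 in the shGlis3 libraries, and 1.36 and 2.67 in the shCD133 libraries. The groups did not overlap with control, which also held for 59.6% of genes tested in shGlis3 and 62.4% in shCD133, and shCD133 library 1 was at the level of the shGlis3 libraries while library 3 stood between them and the controls. The mean fell from 6.76 ± 0.424 RPKM to 1.345 ± 0.0212 in shGlis3, or 19.9% of control, and to 2.02 ± 0.926 in shCD133, or 29.8% (SD, n = 2 each).

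On the log2 scale Trf fell by 1.73 in shGlis3 (SE 0.189, adjusted p = 0.0066), where 4.53% of genes tested fell, and by 1.40 in shCD133 (SE 0.189, adjusted p = 0.0149), where 3.64% fell. The 2 comparisons share their control libraries. Between the knockdowns the difference was -0.33 (interval -0.78 to 0.12, adjusted p = 0.358). Both calls were lost without control library 1 (-1.67, adjusted p = 0.0742, and -1.34, adjusted p = 0.0873) and without control library 3 (-1.78, adjusted p = 0.0597, and -1.45, adjusted p = 0.0794), and with a pseudocount of 5 the values were -0.89 and -0.75, both past the threshold. Exons of Trf (chromosome 9: 103204001 to 103230444, minus strand, 17 exons in its longest coding transcript) share 2108 bases with the predicted gene Gm20425 on the same strand, so its reads may have been counted in part or left out as ambiguous.

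The genes nearest to Trf over the 6 libraries were Hp (haptoglobin, which binds free haemoglobin), Tmem178 (a transmembrane protein), Rbp4 (the plasma retinol carrier), Gpx3 (plasma glutathione peroxidase) and Gpc3 (glypican 3, a cell surface proteoglycan). Their distances were 0.20 to 0.53, where a gene without variation would lie at 1.89. Hp was also among the 5 genes with the highest Pearson's r. Hp had 7.59 and 5.95 RPKM in the controls, 1.54 and 1.22 in shGlis3, and 1.23 and 2.64 in shCD133 libraries 1 and 3, with the same intermediate value in shCD133 library 3 as for Trf.

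Of the other secreted carriers of iron, heme or haemoglobin in the lists, Hp, Cp, Hpx and Lcn2 fell in the Glis3 knockdown and Ltf did not; this grouping was made after their values were seen. Ltf (lactotransferrin, a secreted relative of transferrin) had 81.36 and 89.15 RPKM in control, 92.64 and 272.73 in shGlis3, and 260.31 and 218.39 in shCD133 libraries 1 and 3. All 4 knockdown libraries lay above both controls, where 59.6% (shGlis3) and 62.4% (shCD133) of genes tested did not overlap with control either. Neither difference in Ltf passed in the main fit (0.89, adjusted p = 0.215, and 1.47, adjusted p = 0.0712). With only the 2 groups fitted in limma, the shCD133 difference passed (adjusted p = 0.00379) and the shGlis3 difference did not (adjusted p = 0.264). The shGlis3 value was 1.67 without shGlis3 library 1 and 0.12 without shGlis3 library 3, so Ltf is not shown to be unchanged. Hp fell by 1.70 in shGlis3 and by 1.44 in shCD133 (adjusted p = 0.0094 and 0.0191). Cp (ceruloplasmin, a plasma ferroxidase) fell from 291.6 to 149.6 RPKM in shGlis3 (log2 fold change -0.96, SE 0.201, adjusted p = 0.0294). Its shCD133 values were split, at 162.65 and 253.99 RPKM (-0.52, adjusted p = 0.138). Hpx (hemopexin, the plasma heme carrier) had only 1.8 and 1.92 RPKM in control and 0.74 and 0.54 in shGlis3, or 34.4% of control. It fell by 0.80 in shGlis3 (adjusted p = 0.0352), a value that was -1.42 with a pseudocount of 0.1 and -0.28 with 5, and its value in shCD133 was -0.50 (adjusted p = 0.117). Lcn2 (lipocalin 2, which binds iron-loaded siderophores) fell by 1.00 in shGlis3 (adjusted p = 0.0468), with 374.85 and 226.45 RPKM against 544.19 and 623.37 in control, and its value in shCD133 was -0.32 (adjusted p = 0.428). For Cp, Hpx and Lcn2 the difference between the knockdowns did not pass (adjusted p = 0.258, 0.366 and 0.181). Every call on Hp, Cp, Hpx and Lcn2 was lost without either control library. Without shGlis3 library 3 the values were -0.83 for Cp (adjusted p = 0.101), -0.72 for Hpx (0.116) and -0.63 for Lcn2 (0.12), none past the threshold. The call on Lcn2 was also lost with quantile normalization (adjusted p = 0.0577) and without a trend in the prior (0.0542). With the replicate block the shGlis3 calls on Cp, Hpx and Lcn2 were lost (adjusted p = 0.064, 0.0664 and 0.0936), while both on Hp were kept. With a pseudocount of 5 the values of Hp were -0.88 and -0.77, both past the threshold. Transferrin is made mainly by hepatocytes in the body, and of 11 hepatocyte markers 4 were measured (Apoa2, Ttr, Fga and Hnf4a). They summed to 54.6 and 50.96 RPKM in control, 60.29 and 62.84 in shGlis3, and 48.8 and 49.38 in shCD133. The few measured genes of several other marker lists differed more between libraries. Fn1, alone of 11 mesenchymal markers, had 112.3 and 111.9 RPKM in control, 53.48 and 56.31 in shGlis3, and 84.7 and 87.79 in shCD133. The acinar sum, of 2 of 13 markers, was lowest in shGlis3 and highest in shCD133. The endocrine sum, of 5 of 11 markers, was low, at 4.41 and 10.75 RPKM in control, 12.84 and 6.41 in shGlis3, and 2.81 and 1.1 in shCD133. Cd68 and Cd14 summed to 400.7 and 427.9 RPKM in control, 372.4 and 298.9 in shGlis3, and 325.3 and 379 in shCD133. So few markers do not show whether mesenchymal, acinar, endocrine or leukocyte cells were present. The part of any such cells in the values of Trf and the carriers was not tested, and in bulk RNA fewer cells of a type and less RNA per cell cannot be told apart.

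**Figure D3:**
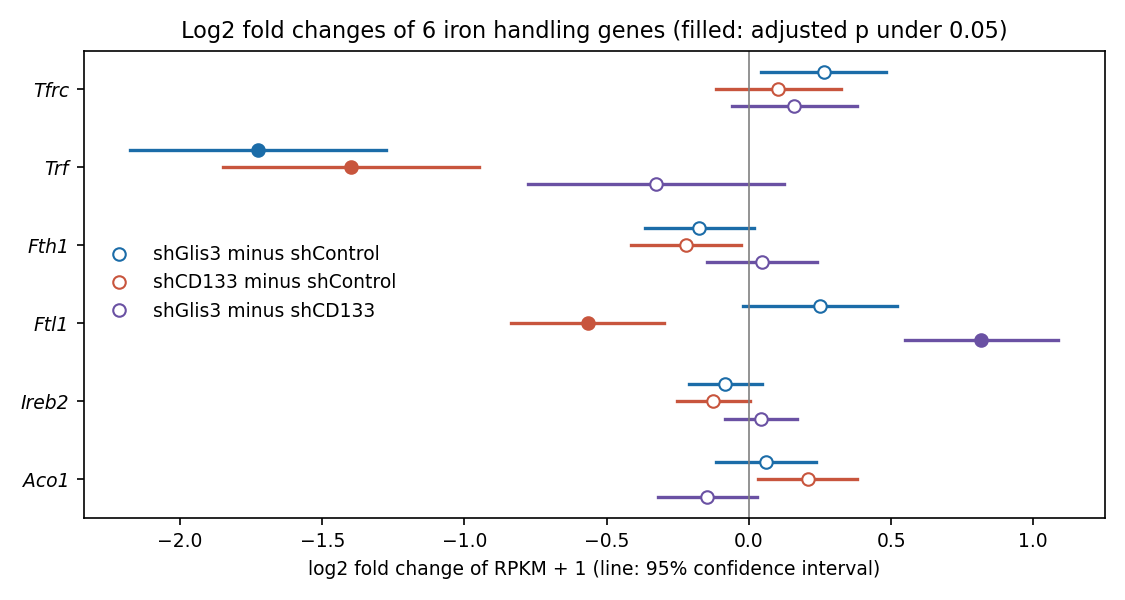
Log2 fold changes in RPKM + 1 with 95% confidence intervals for 6 iron handling genes in the 3 comparisons, filled where the adjusted p was under 0.05. Trf lies far below 0 in both knockdowns, and Ftl1 lies below 0 in shCD133 and above it in shGlis3 against shCD133.

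Fth1, the gene for the ferritin heavy chain, was among the most abundant RNAs of the colonies. Its RPKM was 949.22 and 1027.77 in control libraries 1 and 3, 904.27 and 847.81 in shGlis3, and 824.48 and 871.09 in shCD133. All 4 knockdown libraries lay below both controls, as the groups did not overlap for 59.6% (shGlis3) and 62.4% (shCD133) of genes tested, and the knockdowns overlapped each other. The mean was 988.5 ± 55.5 RPKM in control, 876.0 ± 39.9 in shGlis3 (88.6% of control) and 847.8 ± 33.0 in shCD133 (85.8%; SD, n = 2 each). Neither difference passed: the log2 fold change was -0.17 in shGlis3 (interval -0.37 to 0.02, adjusted p = 0.201) and -0.22 in shCD133 (interval -0.41 to -0.03, adjusted p = 0.121). It passed under no alternative. The annotation holds 11 other loci named after ferritin heavy chain, 5 of them pseudogenes, so some reads of Fth1 (chromosome 19: 9980598 to 9985098, plus strand) are hard to assign.

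The light chain gene Ftl1 separated the knockdowns. Ftl1 had 925.42 and 1044.61 RPKM in the controls, 1166.77 and 1172.82 in shGlis3, and 732.16 and 600.84 in shCD133 libraries 1 and 3. No group overlapped another. The same held for 59.6% of genes tested between shGlis3 and control, 62.4% between shCD133 and control, and 54.7% between the knockdowns. It fell by 0.57 in shCD133 (SE 0.113, adjusted p = 0.0283) to 67.7% of control. The value in shGlis3 was 0.25 (interval -0.02 to 0.52, adjusted p = 0.19), and shGlis3 exceeded shCD133 by 0.82 (SE 0.113, adjusted p = 0.0206). The last difference was above 0 under every alternative, between 0.67 and 0.96, and passed in 8 of 15. Its call was lost when only the 2 groups were fitted (adjusted p = 0.0564) and without any single library other than shGlis3 library 1 (adjusted p = 0.0506 to 0.0813). The fall in shCD133 was lost without either control library or either shCD133 library (adjusted p = 0.0845 to 0.119). Exons of Ftl1 overlap those of a predicted gene on the opposite strand over 355 bases and of another on the same strand over 109 bases, 3 other loci carry its name, and the strand setting used in counting is unknown.

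RPKM is per length, so RNA levels of different genes can be set side by side as ratios within a library. Such ratios do not give the balance of the proteins or of iron uptake against storage. Their scale also rests on gene lengths that the sources do not give. They are given as values, with no test. Fth1 over Ftl1 was 1.03 and 0.984 in the controls, 0.775 and 0.723 in shGlis3, and 1.13 and 1.45 in shCD133 libraries 1 and 3. The 3 groups did not overlap, with control between the knockdowns, and how often ratios of other genes behave so was not computed. Tfrc over Fth1 was 0.0401 and 0.0352 in the controls, 0.0456 and 0.0573 in shGlis3, and 0.0459 and 0.0485 in shCD133. All 4 knockdown libraries therefore lay above both controls in the RNA of the receptor relative to that of the heavy chain. Fth1 alone already lay below both controls in all 4, and how often ratios of other genes separate so was not computed here either.

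**Figure D4:**
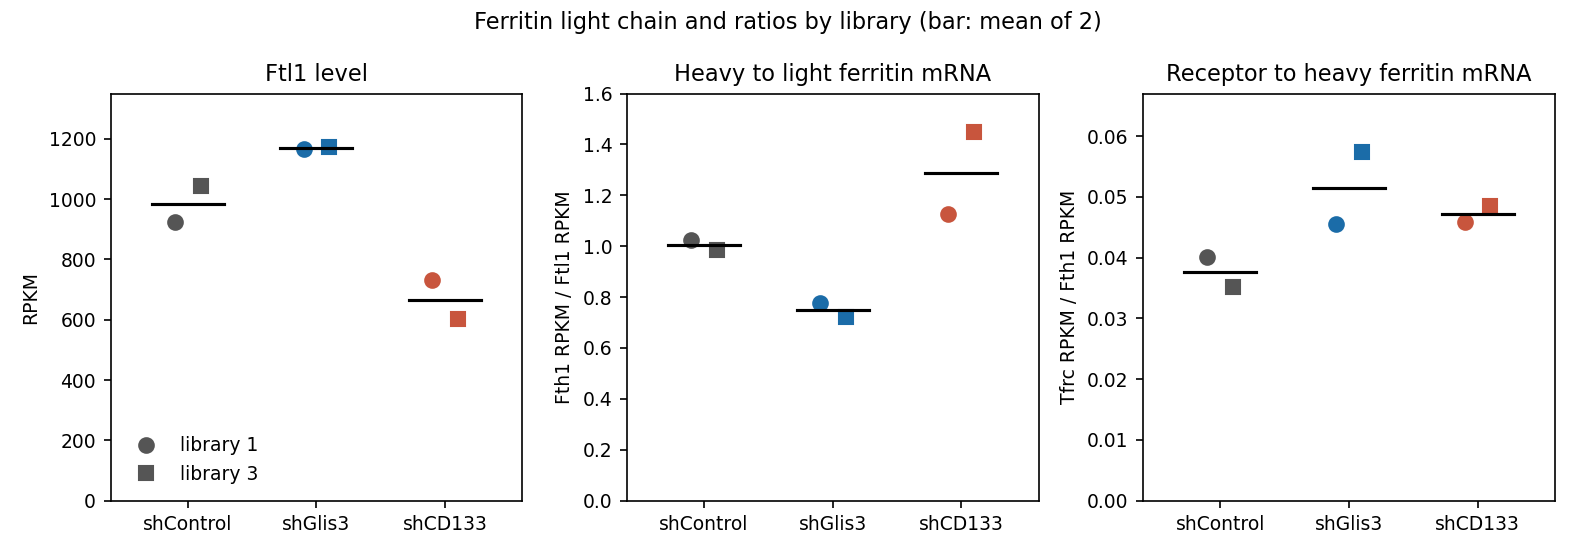
Ftl1 RPKM (left), the ratio of Fth1 to Ftl1 RPKM (centre) and the ratio of Tfrc to Fth1 RPKM (right) in each library, with a bar at the mean of 2 and axes from 0. Ftl1 is highest in shGlis3 and lowest in shCD133, and the ratio of the chains takes the opposite order.

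Genes of the ferritin list that deliver iron or release it gave small differences. Ncoa4, the receptor that takes ferritin to lysosomes, had 41.53 and 44.03 RPKM in control, 44.94 and 45.72 in shGlis3, and 41.54 and 35.11 in shCD133 libraries. The iron chaperones Pcbp1 and Pcbp2, both also RNA-binding proteins, lay between 165.23 and 187.45 RPKM in all 6 libraries. None of these passed in any comparison, where 12.9% (shGlis3), 11.8% (shCD133) and 4.06% (between the knockdowns) of all genes tested passed.

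Ireb2 (chromosome 9: 54863789 to 54912530, plus strand), which encodes IRP2, varied least of the 4 genes. Its RPKM was 20.66 and 19.78 in control libraries 1 and 3, 18.62 and 19.46 in shGlis3, and 18.31 and 18.6 in shCD133. Every knockdown library lay below both controls, where 59.6% (shGlis3) and 62.4% (shCD133) of genes tested did not overlap with control either. Both shCD133 libraries lay below both shGlis3 libraries, as the groups did not overlap for 54.7% of genes tested in that comparison. The log2 fold change was -0.08 in shGlis3 (interval -0.21 to 0.04, adjusted p = 0.34) and -0.13 in shCD133 (interval -0.25 to 0.00, adjusted p = 0.168), and 0.04 between the knockdowns (interval -0.08 to 0.17, adjusted p = 0.697). The 3 intervals reached no farther from 0 than -0.25. IRP2 is known to be controlled mainly through breakdown of the protein, which RNA does not show.

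No gene of the iron sensing list, Ireb2 included, passed in any comparison (0 of 10 tested in limma, with 1 at an unadjusted p under 0.05 in each). Over all genes tested 12.9% passed in shGlis3, 11.8% in shCD133 and 4.06% between the knockdowns. A list of 10 genes is too short to set 0 calls apart from these shares. Aco1, which encodes IRP1, had 22.92 and 24.32 RPKM in control, 25.5 and 23.86 in shGlis3, and 29.05 and 25.83 in shCD133, and was the larger of the 2 regulators on the per-length scale in every library. Its log2 fold change in shCD133 was 0.21 (adjusted p = 0.112). Fam96a, an iron-sulfur assembly factor linked to IRP1, differed between the knockdowns by 0.26 (adjusted p = 0.0975). Fbxl5, the iron-sensing subunit of the ubiquitin ligase that degrades IRP2, lay between 9.95 and 12.25 RPKM in the 6 libraries.

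Of the known or proposed mRNAs with an iron responsive element, 10 were tested in limma. In shGlis3 0 passed, with 3 at an unadjusted p under 0.05, where 12.9% of all genes tested passed. In shCD133, where 11.8% of all genes tested passed and 3.64% fell, 2 of the 10 fell (20.0%). Those were Ftl1 and Pfn2 (profilin 2, an actin regulator), and Pfn2 fell by 0.43 (SE 0.0522, adjusted p = 0.0125), a call lost without control library 1 (adjusted p = 0.0746), control library 3 (0.0668) or shCD133 library 1 (0.0926). Both were also higher in shGlis3 than in shCD133, Pfn2 by 0.60 (adjusted p = 0.0079), a call kept in 14 of 15 alternatives and lost without shCD133 library 1 (adjusted p = 0.0525). Slc40a1, the exporter, had 5.08 and 4.85 RPKM in control, 6.11 and 5.89 in shGlis3, and 5.03 and 5.89 in shCD133. Slc11a2, the endosomal and apical iron transporter DMT1, lay between 8.88 and 10.43 RPKM.

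The wider iron pathway was described with 9 lists and the element list, 143 symbols in all, among them older and newer symbols of some genes. Of 113 genes tested, 9 rose and 7 fell in shGlis3 (14.2%, against 12.9% of all genes), 7 rose and 10 fell in shCD133 (15.0%, against 11.8%), and 3 were higher and 1 lower in shGlis3 than in shCD133 (3.54%, against 4.06%). These shares are near the background. With median centring the split was 2 up and 13 down in each knockdown, and over all genes 576 up and 712 down in shGlis3, where 909 and 491 had passed, and 559 and 612 in shCD133, where 884 and 394 had passed. Without control library 1 none of the 113 passed against control, although 28 in shGlis3 and 29 in shCD133 had an unadjusted p under 0.05. Without control library 3 Bmp6 alone passed in shGlis3 and none in shCD133, with 34 and 37 at an unadjusted p under 0.05. Except for Bmp6 in shGlis3, each call on an iron gene against control given here was therefore lost without either control library. Between the knockdowns Pfn2 alone passed without control library 1, control library 3 or shCD133 library 3, and none without shCD133 library 1 (18 at an unadjusted p under 0.05). Without shGlis3 library 3, 5 passed in shGlis3, and without shCD133 library 1, Trf and Cybrd1 alone passed in shCD133.

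In the transferrin cycle list (11 tested, median log2 fold change 0.04 in shGlis3 and 0.13 in shCD133), Cybrd1 fell beside Trf. Cybrd1, a membrane ferric reductase, had 2.52 and 2.64 RPKM in control, 1.33 and 1.34 in shGlis3, and 1.37 and 0.84 in shCD133 libraries 1 and 3. The fall was 0.62 in shGlis3 (adjusted p = 0.0273) and 0.78 in shCD133 (adjusted p = 0.0197). Steap1, of a family of metalloreductases, rose by 0.59 in shCD133 (adjusted p = 0.0416), and Steap2, an endosomal ferric reductase, was lower in shGlis3 than in shCD133 by 0.51 (adjusted p = 0.0382). With a pseudocount of 5 the values were -0.26 and -0.31 for Cybrd1, 0.27 for Steap1 and -0.30 for Steap2, all past the threshold. The Steap1 call was lost with median centring, quantile normalization and the replicate block (adjusted p = 0.0568, 0.0695 and 0.0811). That of Steap2 was lost with only the 2 groups fitted (0.0842) and with the block (0.0961). With the block Cybrd1 was lost in shGlis3 (0.0566) and kept in shCD133 (0.0481). Hfe, the modulator of the receptor, lay between 0.96 and 1.32 RPKM.

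Among 12 tested genes of export and systemic control, Bmp6 rose and Cp fell in shGlis3. Bmp6, the growth factor that signals iron load to hepcidin, had 6.56 and 7.59 RPKM in control, 12.92 and 12.07 in shGlis3, and 10.11 and 9.61 in shCD133. It rose by 0.74 in shGlis3 (SE 0.078, adjusted p = 0.0062), a call kept in 14 of 15 alternatives and lost without control library 1 (adjusted p = 0.0633). It rose by 0.43 in shCD133 (adjusted p = 0.0233), and its receptor gene Bmpr1a fell there by 0.22 (adjusted p = 0.0377). Exons of Bmp6 overlap those of Txndc5 on the opposite strand over 224 bases.

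Among 14 tested genes of non-transferrin iron, heme and carrier uptake, 2 rose and 4 fell in shGlis3 and 2 rose and 3 fell in shCD133. The shares called were 42.9% and 35.7%, against 12.9% and 11.8% of all genes tested, and no set test was run. Hmox1, the inducible enzyme that frees iron from heme, had 17.14 and 16.63 RPKM in control, 13.9 and 13.68 in shGlis3, and 10.73 and 12.25 in shCD133. Hmox1 fell by 0.27 in shGlis3 (adjusted p = 0.0487) and by 0.52 in shCD133 (adjusted p = 0.0148). The shGlis3 call was lost with a pseudocount of 0.1, with a mean of at least 5 RPKM, without a trend in the prior and with the replicate block. The shCD133 call was kept under each of these. The biliverdin reductases act after it: Blvra rose by 0.34 in each knockdown (adjusted p = 0.032 and 0.0346) and Blvrb by 0.43 in shGlis3 (adjusted p = 0.0369), but neither passed with median centring. Slc22a17, a receptor for lipocalin 2, rose by 0.81 in shCD133 (adjusted p = 0.0191). Slc48a1, a lysosomal heme transporter, fell there by 0.31 (adjusted p = 0.0352) and was higher in shGlis3 than in shCD133 by 0.36 (adjusted p = 0.0429).

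**Figure D5:**
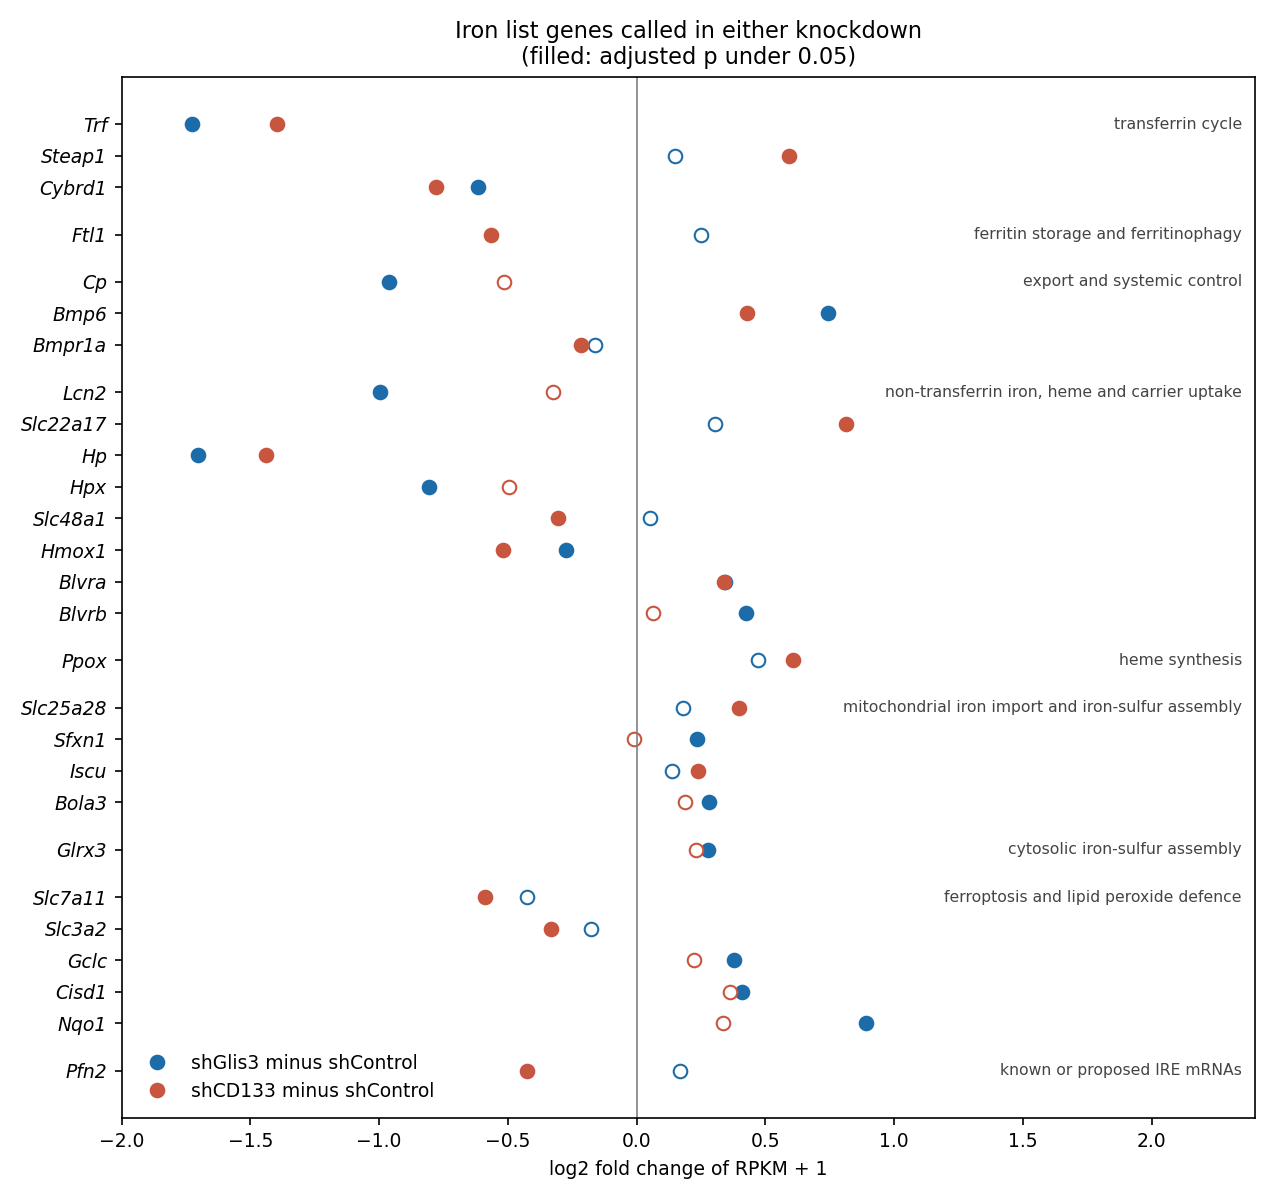
Log2 fold changes in RPKM + 1 of the iron list genes past the threshold in at least 1 knockdown, grouped by list, with blue for shGlis3 and red for shCD133 against the same controls and filled points for an adjusted p under 0.05. Trf and Hp show the lowest values in both knockdowns, and Nqo1 and Bmp6 the highest in shGlis3.

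The genes that use iron gave few calls, in short lists, and no set test was run. In shGlis3 the shares called were 0% in heme synthesis, 9.52% in the mitochondrial list and 11.1% in the cytosolic list, against 12.9% of all genes tested. In shCD133 they were 8.33%, 9.52% and 0%, against 11.8%. In heme synthesis (12 tested) none passed in shGlis3, with 2 of 12 at an unadjusted p under 0.05 in limma, and Ppox (protoporphyrinogen oxidase) rose by 0.61 in shCD133 (adjusted p = 0.0425). In mitochondrial iron import and iron-sulfur assembly (21 tested), Sfxn1 (a mitochondrial serine transporter) and Bola3 (an iron-sulfur cluster factor) rose in shGlis3 by 0.24 and 0.28, and Slc25a28 (mitoferrin 2) and Iscu (the assembly scaffold) rose in shCD133 by 0.40 and 0.24. Of 9 cytosolic assembly genes, Glrx3 (an iron-sulfur glutaredoxin) rose in shGlis3 by 0.28 (adjusted p = 0.0342). The calls of Ppox, Sfxn1, Bola3, Slc25a28 and Iscu were lost with median centring, as was that of Glrx3.

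Among 13 genes of lipid peroxide defence, which limits iron-driven cell death, 3 rose in shGlis3 and 2 fell in shCD133. These were 23.1% and 15.4% of the list, against 12.9% and 11.8% of all genes tested that passed. Nqo1 (a quinone reductase) had 7.36 and 8.47 RPKM in control and 14.86 and 16.17 in shGlis3, a rise of 0.89 (adjusted p = 0.0131), and 11.97 and 8.72 in shCD133 (0.34, adjusted p = 0.154). Gclc (a subunit of the enzyme that starts glutathione synthesis) and Cisd1 (an iron-sulfur protein of the outer mitochondrial membrane) rose in shGlis3 by 0.38 and 0.41, both lost with median centring. Slc7a11 and Slc3a2, the subunits of the cystine transporter, fell in shCD133 by 0.59 and 0.33 (adjusted p = 0.0268 and 0.0216), and their values in shGlis3 were -0.43 and -0.18 (adjusted p = 0.0568 and 0.0916). Gpx4, the peroxidase that defines this pathway, lay between 92.07 and 105.43 RPKM.

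The genes nearest to Fth1 and Ireb2 followed small differences. For Fth1 they were Pink1 (a mitochondrial quality control kinase), Imp3 (a factor of ribosomal RNA processing), Derl1 (a component of protein export from the endoplasmic reticulum), Dapp1 (a signalling adaptor) and Fpgt (a fucose salvage enzyme), at distances of 0.05 to 0.07, where a gene without variation would lie at 0.26. For Ireb2 they were Rnf216 and Trim23 (ubiquitin ligases), Galnt11 (a glycosyltransferase), Dstyk (a kinase) and Stambp (a deubiquitinase), at 0.03 to 0.04, against 0.14.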

How the data were processed

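RNA was sequenced from 6 libraries of mouse pancreatic colonies. Values are RPKM, deposited by the authors as 1 table of all samples. The tools named in the submitters' processing notes are TopHat2, HTSeq and bcl2fastq (2.18.0.12), with the build mm10. The labels give a stranded poly(A) kit; the sources used here give neither gene lengths nor the strand setting. Every gene in the table reaches 1.0 RPKM in some library. Depth was estimated as the library size at which most low values of short genes are whole reads within 0.15 read: 56.8 to 62.6% came out whole, against 30% by chance, so no count test was run. Tests used limma 3.58.1 in R 4.3.3 on log2(RPKM + 1), which understates changes of low genes, for the 10829 genes whose mean reached 1 RPKM, with 3 group means, a trended prior and Benjamini-Hochberg adjustment over all genes (threshold 0.05). The code was tested on simulated data. Besides the 4 genes, the rule names iron list genes past the threshold in any comparison, the 2 with the smallest p in a list with none, the 5 nearest to each member, and Glis3 and Prom1. Slc40a1, Slc11a2, Ncoa4, Pcbp1, Pcbp2, Hfe, Fbxl5, Gpx4 and Ltf fall outside it and were named after their values were seen. The members and lists were chosen with earlier results of these data known. The alternatives were other pseudocounts, filters, normalizations, priors, sample sets, a replicate block and leaving out each library. An item of the element search is not reported here.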

Additional observations from a re-analysis of the deposited data

How the results depend on the processing

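With 2 libraries a group, counts of calls moved with single libraries, while the direction of Trf did not change. Leaving out 1 library in turn, Trf against control stayed between -1.78 and -1.67 in shGlis3 and between -1.72 and -1.08 in shCD133, and Tfrc in shGlis3 between 0.15 and 0.38. Genes past the threshold then numbered 21 to 1334 in shGlis3, 0 to 1657 in shCD133 and 25 to 743 between the knockdowns, and iron list genes 0 to 14, 0 to 20 and 0 to 6. The count of 0 arose in limma without either control library, with 2444 and 2672 genes at an unadjusted p under 0.05. With a mean of at least 5 RPKM, 913 genes and 9 iron list genes passed in shGlis3, and Trf was not tested. With only the 2 knockdowns fitted, 58 genes and 1 iron list gene passed between them. The mean ratio of Tfrc to Fth1 in shCD133 was 0.0453 after quantile normalization, against 0.0472. With a pseudocount of 5, called values of low genes shrank by over 1.5 times, also for Blvra, Blvrb and Bola3 in shGlis3 and Blvra and Ppox in shCD133, with every call kept. Apart from the arithmetic of the pseudocount, the cause of these shifts was not tested.

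Deviations of libraries with the same replicate number correlated across genes at -0.372 and -0.428 between control and the knockdowns and 0.0322 between the knockdowns. With 2 libraries a group and genes that are not independent, these values cannot decide whether the numbers mark pairs. With the replicate block, 608 genes and 4 iron list genes passed in shGlis3, 335 and 6 in shCD133, and 79 and 1 between the knockdowns, and of the 14 proliferation genes 8 rose in shGlis3 and 2 in shCD133. Trf passed against control in both, and Ftl1 did not (adjusted p = 0.0665 against control, 0.0604 between the knockdowns).

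Values that changed sign were past no threshold where they did so. Slc48a1 in shGlis3 was -0.0071 with median centring, and Blvrb in shCD133 was -0.018 with quantile normalization. Leaving out 1 library in turn, Slc48a1 ranged from -0.034 to 0.13 and Steap1 from -0.023 to 0.32 in shGlis3, and Blvrb from -0.049 to 0.18 and Sfxn1 from -0.054 to 0.032 in shCD133. Between the knockdowns the range was -0.054 to 0.066 for Blvra, -0.30 to 0.028 for Ppox, -0.021 to 0.34 for Cybrd1, -0.62 to 0.091 for Hp, -0.010 to 0.10 for Glrx3 and -0.061 to 0.16 for Cisd1.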
